A study of Mus musculus with 6 samples.

Results

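The genes described here are the mouse major histocompatibility complex (MHC) genes with their peptide-processing partners and the interferon-inducible GTPases, measured in livers that received an adenovirus carrying Dyrk1b, a dual-specificity protein kinase. Members were the rows of the deposited table whose symbol begins with H2- or with Gbp and a digit, together with 17 listed genes, which gave 66 of 22274 genes. They comprised 27 class I heavy-chain genes, 12 class II genes (with Cd74 and Ciita), 9 antigen-processing genes and 17 GTPase genes. The remaining H2- symbol, H2-Ke6, lies in the MHC but encodes a hydroxysteroid dehydrogenase. RNA came from liver of C57 mice infected with the adenovirus Ad-Dyrk1b, which overexpresses mouse Dyrk1b, or with the control adenovirus Ad-EGFP, 3 libraries each. All 6 libraries therefore came from liver that received an adenovirus, and no uninfected liver was analysed here. Below, Ad-Dyrk1b livers and Ad-EGFP livers stand for the 3 libraries of each group. Age and sex of the mice, virus dose and the interval before sampling were not given in the sources used here. Separate mice within a group are not stated either, and p-values then reflect only the variation among these samples, part of which may be technical.

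MHC class I molecules are heavy chains paired with beta-2-microglobulin that display peptides cut by the proteasome and pumped into the endoplasmic reticulum by the TAP transporter. The classical genes H2-K1 and H2-D1 are expressed widely, whereas many genes of the Q, T and M regions are non-classical, with narrower expression or specialised ligands. Class II molecules are made mainly by antigen-presenting cells under control of the coactivator Ciita, and the invariant chain Cd74 escorts them. The guanylate-binding proteins (GBPs) and the immunity-related GTPases (IRGs) are induced by interferons, IFN-gamma above all, and act on the membranes of vacuoles that hold intracellular pathogens.

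Promoter sequences of 8 members are shown because these genes differ in what was measured and share short elements that interferon and class II regulators are known to use. The RefSeq promoter table (GRCm38.p6, mm10) held 47 of the 66 members, and each line gives the 180 bases before the RefSeq start site, 5′ to 3′ on the gene's strand. GENCODE M21, used below for gene positions, starts some of these genes elsewhere. It starts H2-T23 at 36032855, H2-DMb1 at 34153072 and Irgm2 at 58199618, each upstream of the elements marked here. Capitals mark matches, on either strand, to the core of the interferon-stimulated response element (ISRE, 2 copies of GAAA with 2 free bases between), the gamma-activated site (TTCNNNGAA) or the X box core of MHC promoters (AG, 2 free bases, AC, 1 free base and GATG). Overlapping matches run together.
Gbp3 (chr3:142559864-142560043, plus strand): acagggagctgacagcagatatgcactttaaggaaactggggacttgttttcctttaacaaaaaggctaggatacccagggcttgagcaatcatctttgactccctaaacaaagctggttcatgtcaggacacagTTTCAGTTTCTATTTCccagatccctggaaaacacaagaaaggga
Gbp7 (chr3:142530156-142530335, plus strand): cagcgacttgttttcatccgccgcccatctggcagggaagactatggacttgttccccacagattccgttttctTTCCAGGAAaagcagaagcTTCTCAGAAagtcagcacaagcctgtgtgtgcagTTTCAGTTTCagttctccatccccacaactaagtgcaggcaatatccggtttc
Gbp2b (chr3:142594667-142594846, plus strand): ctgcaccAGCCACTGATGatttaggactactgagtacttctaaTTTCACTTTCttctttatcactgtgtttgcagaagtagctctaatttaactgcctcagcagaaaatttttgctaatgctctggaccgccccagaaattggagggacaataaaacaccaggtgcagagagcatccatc
H2-T23 (chr17:36032702-36032881, minus strand): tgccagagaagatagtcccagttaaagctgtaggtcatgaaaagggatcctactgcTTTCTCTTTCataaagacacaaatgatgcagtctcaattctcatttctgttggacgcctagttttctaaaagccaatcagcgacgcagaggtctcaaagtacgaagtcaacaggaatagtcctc
Igtp (chr11:58199376-58199555, plus strand): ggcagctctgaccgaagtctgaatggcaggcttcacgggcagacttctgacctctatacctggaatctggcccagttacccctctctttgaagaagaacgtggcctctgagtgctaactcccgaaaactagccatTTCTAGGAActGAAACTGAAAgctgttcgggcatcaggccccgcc
Irgm2 (chr11:58214797-58214976, plus strand): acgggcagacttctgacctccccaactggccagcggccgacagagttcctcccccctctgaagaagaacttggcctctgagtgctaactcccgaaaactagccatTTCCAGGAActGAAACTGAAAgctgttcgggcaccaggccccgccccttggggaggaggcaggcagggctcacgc
H2-Eb1 (chr17:34305687-34305866, plus strand): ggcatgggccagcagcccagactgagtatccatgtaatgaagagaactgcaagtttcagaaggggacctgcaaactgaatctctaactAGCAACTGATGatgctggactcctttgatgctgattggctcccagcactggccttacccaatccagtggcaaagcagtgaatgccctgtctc
H2-DMb1 (chr17:34153011-34153190, plus strand): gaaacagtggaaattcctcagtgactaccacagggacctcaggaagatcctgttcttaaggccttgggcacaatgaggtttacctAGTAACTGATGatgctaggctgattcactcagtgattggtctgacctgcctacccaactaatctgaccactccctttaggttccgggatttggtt
In the full windows of 300 bases, the ISRE core was present in the promoters of 13 of 47 member genes (27.7%), against 3.99% of the 27025 genes in the table. The gamma-activated site was present in 10 member genes (21.3%), against 9.55% of all genes, and the X box core likewise in 10 (21.3%), against 1.14%. The X box core lay in the class II genes H2-Eb1, H2-DMb1, H2-Eb2 and H2-Oa. It also lay in H2-M10.1, H2-M10.2, H2-M10.5, H2-M10.6, Gbp2b and Psmb10, which are not class II genes. Of these 10, 4 had enough counts to test and 4 had no count in any library. A motif match describes letters and is not evidence of a bound site. Members of a family are copies of one another and share sequence: the printed promoters of Igtp and Irgm2 have an identical run of 38 bases.

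Libraries held between 17326516 and 20024888 counts. Dyrk1b itself had 62.2, 101 and 96.5 FPKM (reads scaled by transcript length and library size) in Ad-Dyrk1b livers, against 3.81, 4.97 and 4.16 FPKM in Ad-EGFP livers. It was thus higher in every library labelled Ad-Dyrk1b (log2 fold change 4.49 ± 0.24, SE, edgeR adjusted p = 1.33e-05). On the first principal component of all tested genes, which held 52.4% of the variance, the groups separated. On the second, which held 14.3%, Ad-Dyrk1b replicate 3 stood apart at -26.7, and it also had the highest summed FPKM of 6 erythroid genes (5747, against at most 1622 in the others).

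Of the 66 members, 10 had no count in any library, 5 had too few counts to test and 51 were tested. A gene passed where its adjusted p in edgeR's quasi-likelihood test over all 13201 tested genes was under 0.05. By that threshold 5 members rose and 1 fell, or 11.8% of those tested, against 12.2% of all tested genes in either direction (7.36% higher and 4.81% lower). Over all genes 972 rose and 635 fell, while limma-trend on log2(FPKM + 1) gave 566 higher and 712 lower, with 6 members passing. By edgeR the share of members that passed was close to that of all genes, and what follows concerns which members they were. By DESeq2 11 of the 51 members passed (21.6%), against 14.3% of all genes tested. The members that rose were H2-Q1, H2-T24, H2-T23, Gbp3 and Gbp7, and H2-Q7 was the member that fell. Over the 51 tested members the median log2 fold change was 0.13, against -0.005 over all tested genes. That median was 0.055 without Ad-EGFP replicate 1, 0.078 without Ad-Dyrk1b replicate 1 and 0.022 on log2(FPKM + 1). In bulk tissue a change in the number of cells of one type and a change in RNA per cell cannot be told apart.

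**Figure D1:**
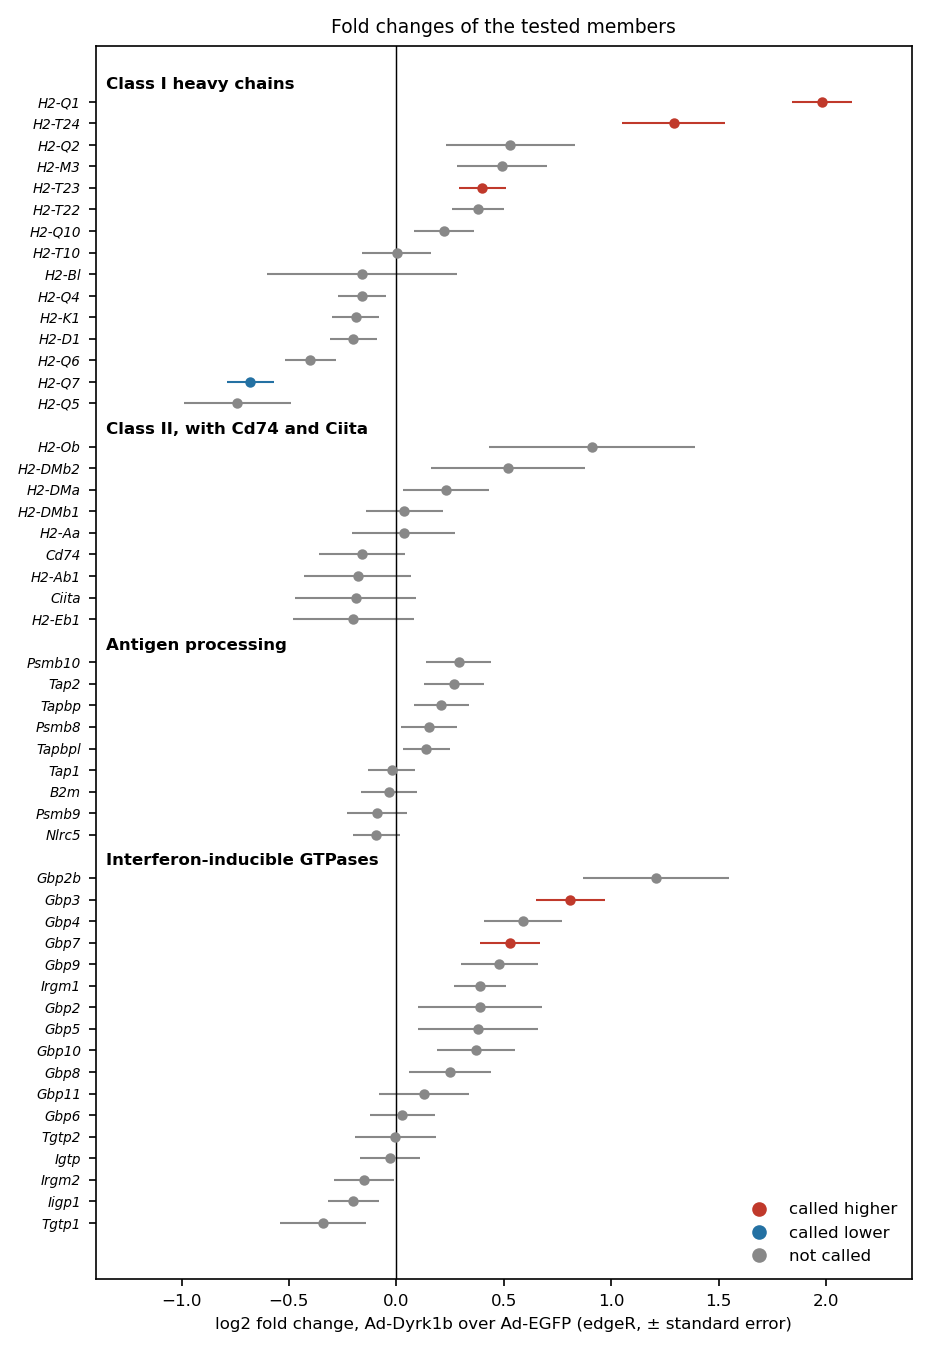
Log2 fold change (Ad-Dyrk1b over Ad-EGFP, horizontal axis) of the 50 tested members that belong to a class, with bars of 1 standard error from the edgeR fit and 3 libraries per group. Class I genes spread from H2-Q1 at 1.98 to H2-Q5 at -0.74, whereas antigen-processing genes lay between -0.094 and 0.29.

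Class I genes changed in both directions within one gene cluster. Of 27 class I genes, 15 were tested, 3 rose and 1 fell, with a median log2 fold change of 0.00089 (-0.071 to 0.12 over the other settings). The share that passed was 26.7%, against 12.2% of all tested genes in either direction (7.36% higher and 4.81% lower). For 12 of these 15 genes the normalised CPM (counts scaled by library size) of the 2 groups of libraries did not overlap, 6 with Ad-Dyrk1b above and 6 with Ad-Dyrk1b below. The corresponding background over all tested genes was 16.8% above, 16.7% below and 33.5% in total.

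H2-Q1, a Q region gene at chr17:35320405-35325099 (GRCm38, GENCODE M21), showed the largest rise among the tested members. It had 23.2, 21.8 and 18.3 FPKM in Ad-Dyrk1b livers, against 6.08, 4.90 and 6.04 FPKM in Ad-EGFP livers. Every Ad-Dyrk1b library stood well above every Ad-EGFP library. The means were 21.1 ± 2.52 FPKM with Ad-Dyrk1b and 5.67 ± 0.67 FPKM with Ad-EGFP (SD, n = 3 each). In the edgeR fit, which uses scaled counts and not FPKM, the difference was 3.93-fold (log2 fold change 1.98 ± 0.14, edgeR adjusted p = 3.68e-06). These levels rested on 644 to 873 counts per library with Ad-Dyrk1b and 169 to 216 with Ad-EGFP. It passed in all 14 settings tried.

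H2-Q7, a Q region gene whose product is known as a Qa-2 antigen, lies at chr17:35439155-35443773 and was the single member that fell. It had 82.5, 70.7 and 73.4 FPKM in Ad-Dyrk1b livers, against 137, 119 and 122 FPKM in Ad-EGFP livers. The groups did not overlap, and the log2 fold change was -0.68 ± 0.11 (edgeR adjusted p = 0.00154), a call that held in all 14 settings. Its neighbour H2-Q6, which shares 100-base stretches with it, had 40.1, 27.5 and 32.8 FPKM in Ad-Dyrk1b livers, against 50.3, 47.4 and 42.2 FPKM in Ad-EGFP livers. That difference did not pass (log2 fold change -0.40 ± 0.12, edgeR adjusted p = 0.0524), although it did in 4 of the 14 settings, those without Ad-Dyrk1b replicate 1 (0.032), without a count filter (0.0334), with a replicate block (0.0293) and in DESeq2 (0.0358). Of all 100-base windows of H2-Q7 transcripts, 16.4% also occur in another gene, for the most part H2-Q6, so reads may have been split between them. The same share was 13.1% for H2-Q1 and 10.8% for H2-Q6.

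Relative to H2-Q7, H2-Q1 was at 0.281, 0.308 and 0.249 of its FPKM in Ad-Dyrk1b livers, against 0.0444, 0.0412 and 0.0493 in Ad-EGFP livers. This within-library ratio, chosen after the values were seen and not tested, had no overlap between groups. Along chromosome 17 the Q region genes lie in the order H2-Q1, H2-Q2, H2-Q4, H2-Q5, H2-Q6, H2-Q7 and H2-Q10. Their log2 fold changes in that order were 1.98, 0.53, -0.16, -0.74, -0.40, -0.68 and 0.22. The genes from H2-Q4 to H2-Q7 thus had values below 0, and those at both ends of the region values above 0. This order was not tested. H2-Q5 is annotated as a polymorphic pseudogene and had 47 to 110 counts per library. Some 100-base windows of H2-Q7 also occur in H2-Q5, so reads of these genes may not be fully separable. Of the region's 7 genes, H2-Q1 and H2-Q7 passed the test (28.6%, against 12.2% of all tested genes). H2-Q5 passed in the limma-trend fits alone (adjusted p = 0.0394 and 0.0377, against 0.0725 in edgeR).

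Among T region genes, 2 of 5 tested rose (40%, against 7.36% of all tested genes). H2-T24 had 3.31, 2.96 and 2.58 FPKM in Ad-Dyrk1b livers, against 0.93, 1.20 and 1.69 FPKM in Ad-EGFP livers. The 2 groups were separate (log2 fold change 1.29 ± 0.24, edgeR adjusted p = 0.00461, passing in all 14 settings), and none of its 100-base windows occurs in another gene. H2-T23, the gene of Qa-1, which presents signal-sequence peptides to NK cell receptors, had 232, 183 and 201 FPKM in Ad-Dyrk1b livers, against 153, 165 and 179 FPKM in Ad-EGFP livers. Those ranges nearly touched, and the log2 fold change of 0.40 ± 0.11 (edgeR adjusted p = 0.0331) did not pass when any 1 library was left out (adjusted p between 0.0501 and 0.125) or in limma-trend on FPKM (0.145 and 0.143).

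H2-T22, whose product is recognised by some gamma-delta T cells, had 171, 142 and 128 FPKM in Ad-Dyrk1b livers, against 107, 119 and 133 FPKM in Ad-EGFP livers. On the FPKM scale the ranges overlapped, and the difference did not pass (log2 fold change 0.38 ± 0.12, edgeR adjusted p = 0.0588). H2-T24, H2-T23 and H2-T22 follow one another among the class I genes of chromosome 17, from 36005695 to 36042747. H2-T22 passed when Ad-Dyrk1b replicate 3 was left out (edgeR adjusted p = 0.0344) and in DESeq2 (adjusted p = 0.0249). The next tested T region genes, H2-Bl and H2-T10, had log2 fold changes of -0.16 ± 0.44 and 0.00089 ± 0.16.

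The classical genes had values on the lower side. H2-K1 had 785, 749 and 781 FPKM in Ad-Dyrk1b livers, against 892, 937 and 966 FPKM in Ad-EGFP livers. H2-D1 had 647, 579 and 597 FPKM in Ad-Dyrk1b livers, against 683, 785 and 756 FPKM in Ad-EGFP livers. Both were lower in every Ad-Dyrk1b library than in every Ad-EGFP library, yet neither passed the test (log2 fold changes -0.19 ± 0.11 and -0.20 ± 0.11, edgeR adjusted p = 0.273 and 0.255).

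H2-Q10, which encodes a secreted class I molecule known from liver, was as abundant as the classical chains, with 1024, 838 and 922 FPKM in Ad-Dyrk1b livers, against 926, 701 and 892 FPKM in Ad-EGFP livers (log2 fold change 0.22 ± 0.14, edgeR adjusted p = 0.304). Per length, it stood above H2-K1 in all 3 Ad-Dyrk1b libraries, by 1.30, 1.12 and 1.18 times. In Ad-EGFP libraries the same ratio was 1.04, 0.748 and 0.924. These ratios did not overlap between groups; they were likewise chosen after the values were seen, and no test was made of them. The summed FPKM of all class I genes was 3100, 2687 and 2839 in Ad-Dyrk1b livers, against 3047, 2983 and 3190 in Ad-EGFP livers, so the totals overlapped. H2-Ke6, the MHC gene outside the classes, averaged 19.1 ± 0.765 FPKM in Ad-Dyrk1b livers, against 23.9 ± 2.05 FPKM in Ad-EGFP livers (mean ± SD of 3 libraries), and did not pass (log2 fold change -0.23 ± 0.12, edgeR adjusted p = 0.25).

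M region genes were nearly silent in liver. Of 12, 9 had no count in any library, and a count of 0 allows up to 0.173 CPM in the shallowest library (3 counts, counting error only). H2-M2 and H2-M5, and H2-T3 of the T region, had at most 7 counts in a library. H2-M3, which presents N-formylated peptides, was the M region gene with enough counts to test. Its level was 4.59, 4.51 and 3.66 FPKM in Ad-Dyrk1b livers, against 2.60, 3.30 and 3.77 FPKM in Ad-EGFP livers (log2 fold change 0.49 ± 0.21, edgeR adjusted p = 0.147).

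**Figure D2:**
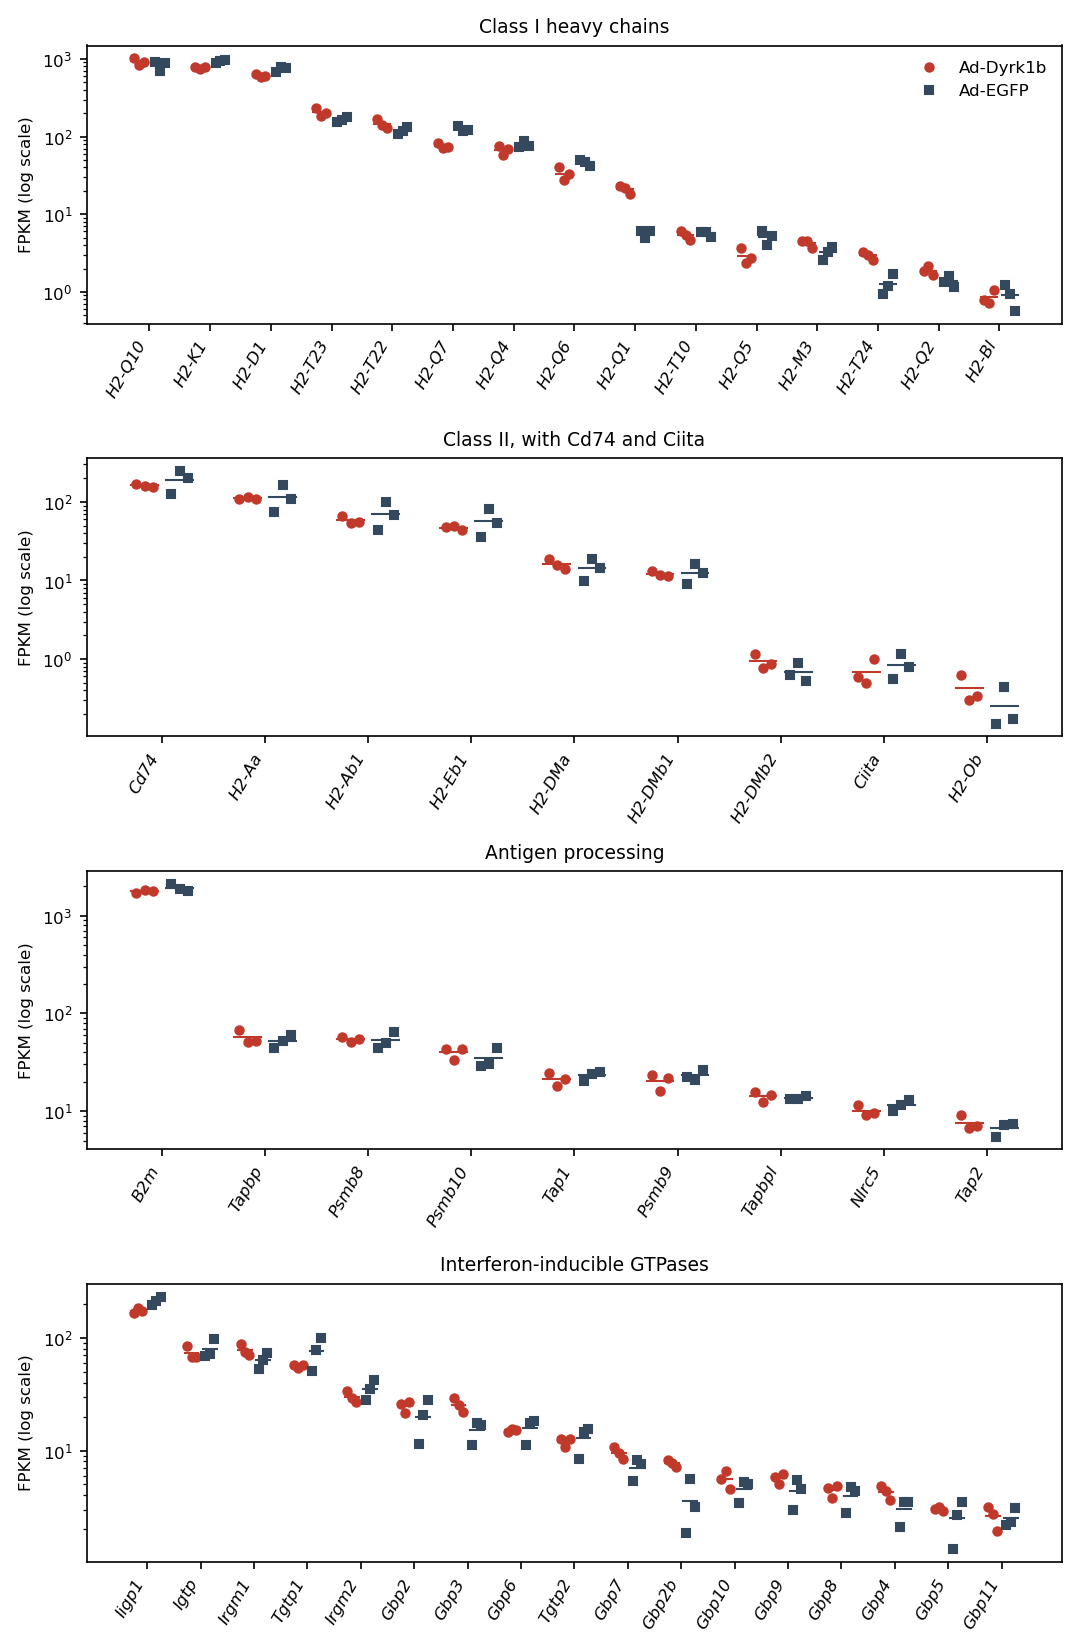
FPKM (vertical axis, log scale) of every tested member by class, with 1 point per library, Ad-Dyrk1b as circles at left, Ad-EGFP as squares at right, and a line at each mean (n = 3 each). The groups separate widely at H2-Q1, where Ad-Dyrk1b livers lie between 18.3 and 23.2 FPKM and Ad-EGFP livers between 4.90 and 6.08 FPKM, while class II genes show a wider spread in Ad-EGFP than in Ad-Dyrk1b livers.

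No antigen-processing gene passed the test. Of 9 tested, none passed in edgeR, DESeq2 or limma-voom, and none had an unadjusted edgeR p under 0.05, with a median log2 fold change of 0.14. B2m, the light chain, had 1716, 1843 and 1767 FPKM in Ad-Dyrk1b livers, against 2118, 1881 and 1789 FPKM in Ad-EGFP livers. Those ranges overlapped (log2 fold change -0.035 ± 0.13, edgeR adjusted p = 0.883).

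The immunoproteasome subunits Psmb8, Psmb9 and Psmb10 replace constitutive subunits when cells respond to IFN-gamma. Psmb8 had 57.3, 51.3 and 54.9 FPKM in Ad-Dyrk1b livers, against 44.3, 49.8 and 64.8 FPKM in Ad-EGFP livers. Psmb9 had 23.5, 16.0 and 21.8 FPKM in Ad-Dyrk1b livers, against 22.5, 20.8 and 26.5 FPKM in Ad-EGFP livers. Psmb10 had 43.4, 33.4 and 42.7 FPKM in Ad-Dyrk1b livers, against 29.0, 30.4 and 44.4 FPKM in Ad-EGFP livers. In each of these genes the groups overlapped, with log2 fold changes of 0.15 ± 0.13, -0.09 ± 0.14 and 0.29 ± 0.15. Psmb10 passed when Ad-EGFP replicate 3 was left out (edgeR adjusted p = 0.0384, against 0.25 with all libraries). None of the 7 genes of the constitutive proteasome and its activators passed (log2 fold changes between -0.065 and 0.15).

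Of the transporter and its loading complex, Tap1 had 24.6, 18.0 and 21.2 FPKM in Ad-Dyrk1b livers, against 20.5, 23.9 and 25.1 FPKM in Ad-EGFP livers (log2 fold change -0.021 ± 0.11). Tapbp, which encodes tapasin, the bridge between TAP and class I, had 67.7, 51.2 and 52.3 FPKM in Ad-Dyrk1b livers, against 43.7, 52.6 and 59.8 FPKM in Ad-EGFP livers (log2 fold change 0.21 ± 0.13). Both genes overlapped between groups. Nlrc5, the transactivator of class I genes, had a log2 fold change of -0.094 ± 0.11, Tap2 of 0.27 ± 0.14 and the tapasin-related Tapbpl of 0.14 ± 0.11. Psmb9 and Tap1 overlap in their exons on opposite strands, Tapbp and Zbtb22 on the same strand, and whether counting used strand was not stated.

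Among 6 genes of peptide loading and trimming outside the members, 1 rose (16.7%, against 7.36% of all tested genes). This was the chaperone Canx, with 123, 111 and 95.3 FPKM in Ad-Dyrk1b livers, against 78.5, 90.7 and 88.9 FPKM in Ad-EGFP livers (log2 fold change 0.44 ± 0.12, edgeR adjusted p = 0.0284). Of the 6 fits with 1 library left out, it passed in the one without Ad-Dyrk1b replicate 3, and its adjusted p reached 0.113 in the others. The remaining 5 genes, Calr, Hspa5, Pdia3, Erap1 and Uggt1, did not pass, with log2 fold changes between -0.058 and 0.32.

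No class II gene passed the test. Of 12 class II genes 9 were tested, and none passed in edgeR, DESeq2 or limma-voom or had an unadjusted edgeR p under 0.05. The median log2 fold change was 0.034, and no tested class II gene had groups that did not overlap. H2-Ea, which C57BL strains are known not to transcribe, had no count in any of the 6 libraries, and H2-Oa and H2-Eb2 had too few to test.

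Spread between Ad-EGFP libraries exceeded the distance between groups in these genes. Cd74 had 168, 161 and 157 FPKM in Ad-Dyrk1b livers, against 124, 248 and 204 FPKM in Ad-EGFP livers (log2 fold change -0.16 ± 0.20). H2-Aa, the class II A alpha chain, had 110.0, 116 and 109 FPKM in Ad-Dyrk1b livers, against 75.2, 164 and 109 FPKM in Ad-EGFP livers (log2 fold change 0.034 ± 0.24). H2-Ab1, its beta chain partner, had 65.3, 54.5 and 55.7 FPKM in Ad-Dyrk1b livers, against 43.7, 99.0 and 68.8 FPKM in Ad-EGFP livers (log2 fold change -0.18 ± 0.25). In each of the 3, Ad-EGFP replicate 1 was the lowest of all libraries and Ad-EGFP replicate 2 the highest.

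H2-Eb1, the E beta chain, had 47.8, 49.4 and 44.2 FPKM in Ad-Dyrk1b livers, against 35.9, 80.6 and 54.1 FPKM in Ad-EGFP livers (log2 fold change -0.20 ± 0.28). H2-DMa and H2-DMb1, which form the peptide editor of class II, had log2 fold changes of 0.23 ± 0.20 and 0.037 ± 0.18. H2-DMa was at 18.5, 15.7 and 13.9 FPKM in Ad-Dyrk1b livers, against 9.91, 19.0 and 14.6 FPKM in Ad-EGFP livers, and H2-DMb1 at 13.4, 11.6 and 11.5 FPKM in Ad-Dyrk1b livers, against 8.97, 16.4 and 12.4 FPKM in Ad-EGFP livers. Of the 9 tested class II genes, 7 were lowest in Ad-EGFP replicate 1 and 7 were highest in Ad-EGFP replicate 2. The highest Ad-EGFP library was 2.26 times the lowest for H2-Ab1, whereas the Ad-Dyrk1b libraries of that gene spread 1.20-fold. H2-Ob, a chain of the DM inhibitor, and H2-DMb2 were at no more than 1.15 FPKM in any library, with log2 fold changes of 0.91 ± 0.48 and 0.52 ± 0.36. Without Ad-EGFP replicate 1 the class II median was -0.25, and without Ad-EGFP replicate 2 it was 0.26.

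Markers of antigen-presenting cells were set beside these values. Of 8 dendritic cell markers 5 were tested and none passed, with summed FPKM of 7.92, 4.96 and 5.07 in Ad-Dyrk1b livers, against 4.41, 7.45 and 5.04 in Ad-EGFP livers, so that Ad-EGFP replicate 1 was lowest here too. Of 11 macrophage and Kupffer cell markers 10 were tested and 1 rose (10%, against 7.36% of all tested genes). This was Cd68 (log2 fold change 0.47 ± 0.13, edgeR adjusted p = 0.0304), a call kept in 1 of the 6 fits with a library left out, the one without Ad-EGFP replicate 2. The summed FPKM of the 11 markers was 1008, 764 and 845 in Ad-Dyrk1b livers, against 516, 767 and 916 in Ad-EGFP livers. B cell markers were near 0, with a sum of at most 2.82 FPKM over 7 genes in any library. Of the 3 tested 1 fell (33.3%, against 4.81% of all tested genes). This was Cr2 (log2 fold change -1.64 ± 0.41, edgeR adjusted p = 0.0224, kept when Ad-EGFP replicate 3 was left out and lost without any other library). The part of cell numbers in the class II values was not tested.

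Among 13 further genes of the class II pathway, 1 fell (7.69%, against 4.81% of all tested genes). Rfx5, a subunit of the factor that binds the X box printed above for H2-Eb1 and H2-DMb1, had 1.71, 1.86 and 1.61 FPKM in Ad-Dyrk1b livers, against 4.75, 3.95 and 4.26 FPKM in Ad-EGFP livers. Its groups were far apart (log2 fold change -1.18 ± 0.16, edgeR adjusted p = 0.000619), and it passed in all 14 settings. Its partners Rfxank and Rfxap had log2 fold changes of -0.045 ± 0.13 and 0.25 ± 0.20, and neither passed. Ciita, which that complex recruits, had 0.59, 0.50 and 0.99 FPKM in Ad-Dyrk1b livers, against 0.56, 1.16 and 0.79 FPKM in Ad-EGFP livers, with a log2 fold change of -0.19 ± 0.28. The proteases Ctss, Ctsl and Lgmn, which trim the invariant chain or antigen, did not pass (log2 fold changes 0.26 ± 0.16, 0.29 ± 0.12 and 0.30 ± 0.16).

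**Figure D3:**
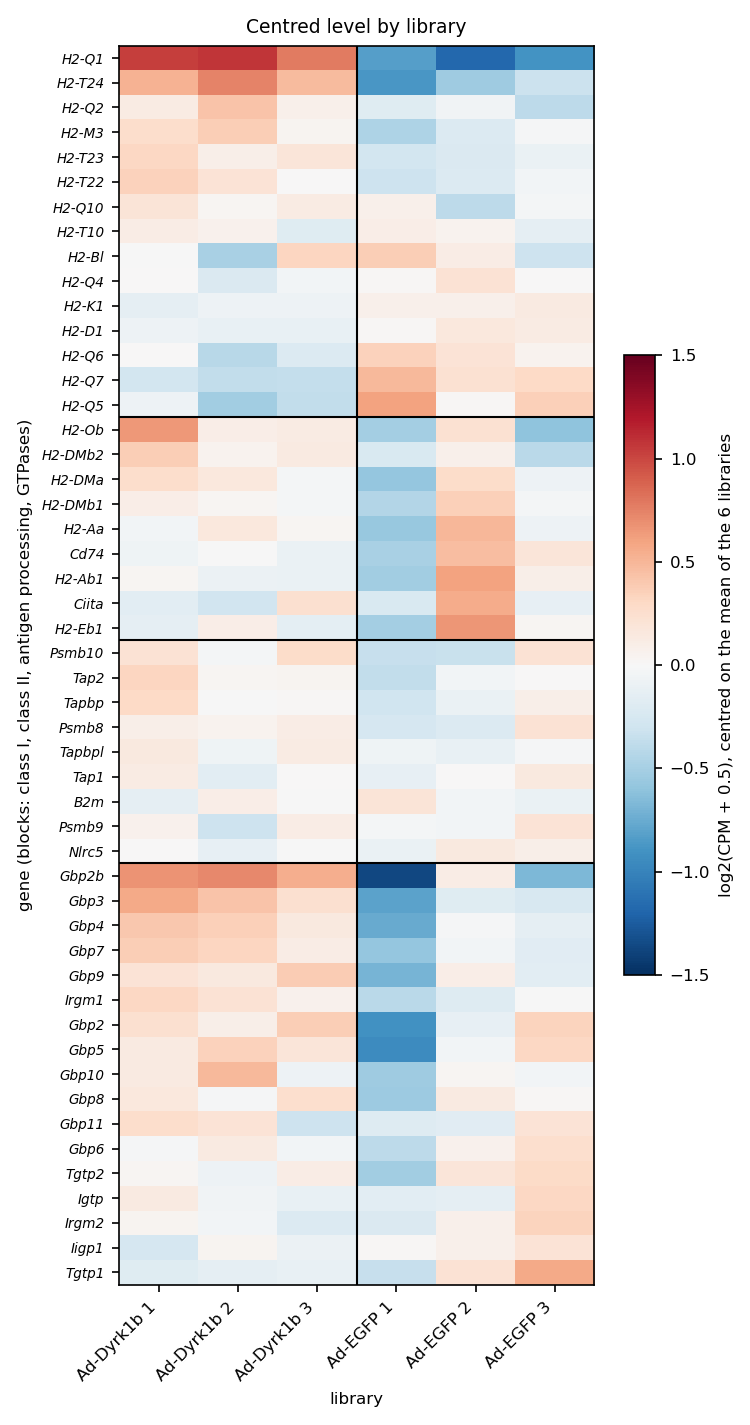
Level of the tested members in each library as log2(CPM + 0.5), centred on the mean of the 6 libraries (colour, limits -1.5 and 1.5), with Ad-Dyrk1b libraries in the left columns and Ad-EGFP libraries in the right. Ad-EGFP replicate 1 is low across class II and GBP genes, and Ad-EGFP replicate 2 is high across class II genes.

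Among GTPases, the genes that rose were both GBP genes. All 11 GBP genes and 6 IRG genes were tested. Of the 17 GTPases 11.8% passed, against 12.2% of all tested genes in either direction. Of the GBP genes 2 rose (18.2%, against 7.36% of all tested genes). All 11 had a log2 fold change above 0 (median 0.39), as did 6515 of the 13201 tested genes. In the FPKM-scale alternatives and when Ad-Dyrk1b replicate 2 or Ad-EGFP replicate 1 was left out, 10 of 11 were above 0, with Gbp6 below. None of the IRG genes passed in the edgeR fit on all libraries with TMM scaling and the count filter. In that fit Irgm1 alone had an unadjusted p under 0.05. The median of the IRG genes was -0.089, with -0.23 without Ad-EGFP replicate 1 and 0.069, on the other side of 0, without Ad-EGFP replicate 3. Over both families, the count that passed was 1 without Ad-Dyrk1b replicate 1 or 2, 5 without Ad-EGFP replicate 2 and 5 in DESeq2. Whether the families differ from each other was not tested.

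Gbp3 had 29.0, 25.6 and 22.2 FPKM in Ad-Dyrk1b livers, against 11.1, 17.6 and 16.9 FPKM in Ad-EGFP livers. The groups did not overlap, with means of 25.6 ± 3.43 FPKM with Ad-Dyrk1b and 15.2 ± 3.55 FPKM with Ad-EGFP (SD, n = 3 each). The log2 fold change was 0.81 ± 0.16 (edgeR adjusted p = 0.00761), and it passed in all 14 settings. Of its 100-base windows 0.929% occur in another gene.

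Gbp7, its upstream neighbour on chromosome 3, had 10.8, 9.49 and 8.44 FPKM in Ad-Dyrk1b livers, against 5.40, 8.28 and 7.52 FPKM in Ad-EGFP livers. The lowest Ad-Dyrk1b library lay close to the highest Ad-EGFP library, and the log2 fold change was 0.53 ± 0.14 (edgeR adjusted p = 0.0284). Its call was lost in 4 of the 6 fits with a library left out, those without Ad-Dyrk1b replicate 1 (adjusted p = 0.0905), Ad-Dyrk1b replicate 2 (0.0874), Ad-EGFP replicate 1 (0.0944) and Ad-EGFP replicate 3 (0.0611), and in limma-trend (0.123 and 0.121). Gbp2b, formerly named Gbp1, had 8.18, 7.77 and 7.09 FPKM in Ad-Dyrk1b livers, against 1.84, 5.63 and 3.17 FPKM in Ad-EGFP livers. Although the groups were separate, the Ad-EGFP libraries spread 3.06-fold, and it did not pass (log2 fold change 1.21 ± 0.34, edgeR adjusted p = 0.0598). It passed in 7 of the 14 settings, with adjusted p of 0.0273 or 0.000619 without Ad-EGFP replicate 1 or 2, 0.0165 with a replicate block, 0.000185 in DESeq2, 0.0223 in limma-voom, and 0.0379 and 0.0468 in limma-trend.

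Gbp2 had 25.7, 21.3 and 26.7 FPKM in Ad-Dyrk1b livers, against 11.4, 20.6 and 28.1 FPKM in Ad-EGFP livers, and the groups overlapped (log2 fold change 0.39 ± 0.29). The 5 GBP genes on chromosome 3 (Gbp5, Gbp7, Gbp3, Gbp2b and Gbp2, from 142493978 to 142638008) had a median log2 fold change of 0.53. Of these 5 genes 2 rose (40%, against 7.36% of all tested genes). The 6 on chromosome 5 (Gbp8, Gbp9, Gbp4, Gbp10, Gbp6 and Gbp11, from 105014150 to 105346472) had a median of 0.31, and none passed. Gbp4 was at 0.59 ± 0.18 (edgeR adjusted p = 0.0565, 0.0274 in DESeq2) and Gbp9 at 0.48 ± 0.18 (edgeR adjusted p = 0.109), and both passed without Ad-EGFP replicate 2 (0.0364 and 0.0324). Gbp10 was at 0.37 ± 0.18, Gbp8 at 0.25 ± 0.19, Gbp11 at 0.13 ± 0.21 and Gbp6 at 0.028 ± 0.15, and on chromosome 3 Gbp5 was at 0.38 ± 0.28. For Gbp6 and Gbp10, 82.9% and 70.9% of the 100-base windows occur in another gene, so the values of these genes are uncertain. Gbp4, Gbp8 and Gbp9 overlap in their exons, so some of their reads may not be separable. The share of their windows in another gene was 2.88%, 3.81% and 2.01%.

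Ad-EGFP replicate 1 was the lowest library for 10 of the 11 GBP genes. Summed over the family, FPKM was 115, 106 and 104 in Ad-Dyrk1b livers, against 55.9, 93.8 and 98.1 in Ad-EGFP livers. Without that library the median log2 fold change of GBP genes was 0.22, and Gbp3 still passed (edgeR adjusted p = 0.0108). The same library was lowest for 8 of 10 tested macrophage and Kupffer cell markers and for all 6 endothelial markers, whose summed FPKM was 83.4, 56.6 and 78.4 in Ad-Dyrk1b livers, against 41.3, 61.9 and 62.0 in Ad-EGFP livers. The part of these cell types in the GBP values was not tested.

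IRG genes summed to 440, 420 and 409 FPKM in Ad-Dyrk1b livers, against 403, 475 and 558 FPKM in Ad-EGFP livers. Iigp1, which attacks parasite vacuoles, had 164, 183 and 174 FPKM in Ad-Dyrk1b livers, against 195, 212 and 231 FPKM in Ad-EGFP livers, and its log2 fold change of -0.20 ± 0.12 did not pass (edgeR adjusted p = 0.29). Igtp, a regulatory IRG also called Irgm3, had 85.0, 68.0 and 67.8 FPKM in Ad-Dyrk1b livers, against 68.5, 72.2 and 98.2 FPKM in Ad-EGFP livers. Its groups overlapped, with a log2 fold change of -0.03 ± 0.14.

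Irgm1, a regulatory IRG that protects host membranes, was the IRG gene with the highest fold change, with 87.8, 75.2 and 70.2 FPKM in Ad-Dyrk1b livers, against 53.2, 63.7 and 72.6 FPKM in Ad-EGFP livers (log2 fold change 0.39 ± 0.12, edgeR adjusted p = 0.0526). It passed in 5 of the 14 settings, those without Ad-Dyrk1b replicate 3 (0.0493), without Ad-EGFP replicate 3 (0.0406), with DESeq2 size factors (0.0499), without a count filter (0.0414) and in DESeq2 (0.0244). Irgm2 had 33.6, 29.0 and 26.8 FPKM in Ad-Dyrk1b livers, against 27.8, 35.3 and 42.2 FPKM in Ad-EGFP livers, with overlap (log2 fold change -0.15 ± 0.14). Igtp and Irgm2 overlap in annotated exons on the same strand, so reads from the overlap may not be separable. The shared part was small: 5.67% of the 100-base windows of Igtp occur in Irgm2, and 2.48% of those of Irgm2 in Igtp.

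Tgtp1 had 57, 54.1 and 57 FPKM in Ad-Dyrk1b livers, against 50.3, 77.4 and 98.7 FPKM in Ad-EGFP livers. Ad-EGFP replicate 1 was below all Ad-Dyrk1b libraries and the other Ad-EGFP libraries above them, so the log2 fold change of -0.34 ± 0.20 did not pass (edgeR adjusted p = 0.289). Without that replicate it passed as lower (adjusted p = 0.0265). Its near-copy Tgtp2 was at -0.0043 ± 0.19. At least 80.4% of the 100-base windows of each occur in another gene, and how reads with several matches were handled was not stated.

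The ISRE core was present in the promoters of all 5 chromosome 3 GBP genes and also of Igtp, Irgm1, Irgm2, Tgtp1 and Tgtp2. Of the 13 members with the element, all of which were tested, 3 rose (Gbp3, Gbp7 and H2-T23), or 23.1%, against 7.36% of all tested genes. The median log2 fold change was 0.38, with 8 members above 0 and 5 below. The count that rose was 1 without Ad-Dyrk1b replicate 1 or 2 and 6 in DESeq2, and the median was 0.11 without Ad-EGFP replicate 1. H2-Q1, H2-T24 and H2-Q7, which also passed, are not among the 13, and only 47 of the 66 members had a promoter to search. Members with and without the element were not compared. In the printed sequences it ends 36 and 30 bases before the start site in Gbp3, where 2 matches overlap, and 25 bases before it in Igtp. Igtp, Irgm2, Tgtp1 and Tgtp2 additionally hold the gamma-activated site just upstream of it, and Gbp7 and Gbp5 hold that site at 2 places each.

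**Figure D4:**
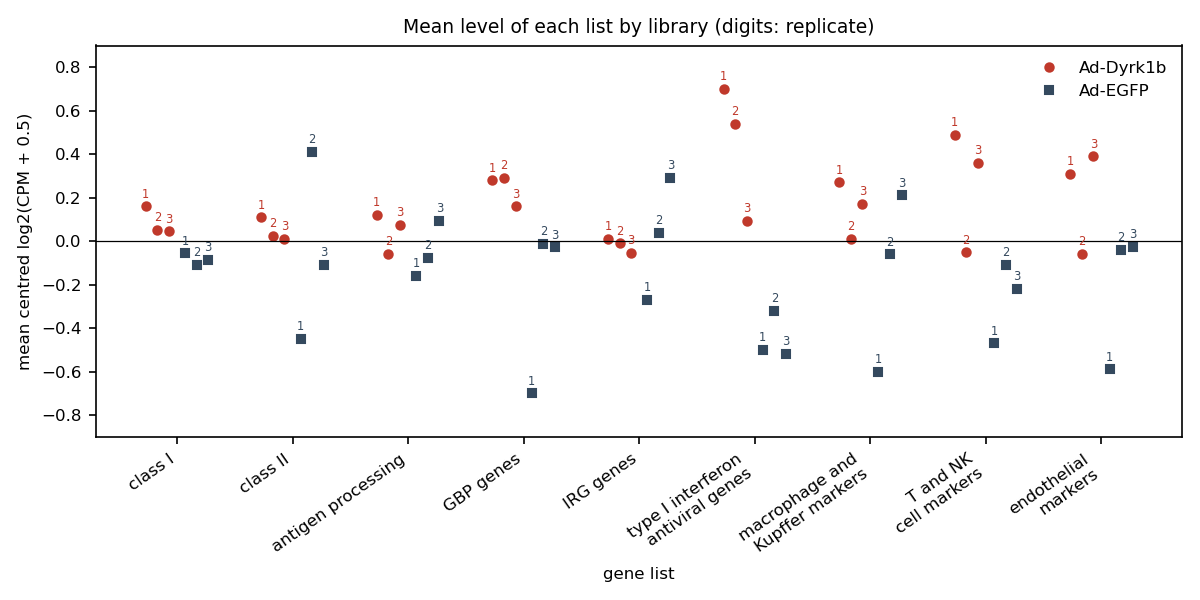
Mean over the tested genes of each list of log2(CPM + 0.5), centred on the 6 libraries (vertical axis), with 1 point per library, Ad-Dyrk1b as circles at left and Ad-EGFP as squares at right of each list, and the replicate number above each point. The 3 Ad-Dyrk1b points lie above the 3 Ad-EGFP points for class I, GBP genes, type I interferon antiviral genes and T and NK cell markers. The class I mean includes H2-Q1, at 1.04, 1.07 and 0.78 with Ad-Dyrk1b, against -0.82, -1.18 and -0.89 with Ad-EGFP. Of the 15 tested class I genes 8 have a log2 fold change above 0 and 7 below (median 0.00089). For class II both the lowest and the highest point are Ad-EGFP libraries.

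Other interferon-related genes are given for setting. Of 16 antiviral genes of the type I interferon response all were tested and 14 rose (87.5%, against 7.36% of all tested genes). The count that rose was between 9 and 16 in the other settings. The list was chosen with earlier results of these data known. Its median log2 fold change was 0.88, with all 16 above 0. Irf7, the factor that amplifies this response, had 116, 95.8 and 90.4 FPKM in Ad-Dyrk1b livers, against 46.2, 47.3 and 58.0 FPKM in Ad-EGFP livers (log2 fold change 1.08 ± 0.12, edgeR adjusted p = 9.33e-05). Isg15, a ubiquitin-like modifier, had 46.5, 35.4 and 27.8 FPKM in Ad-Dyrk1b livers, against 20.6, 17.7 and 21.8 FPKM in Ad-EGFP livers (log2 fold change 0.94 ± 0.17, edgeR adjusted p = 0.00378). Both genes were separate between groups, and by FPKM all 16 antiviral genes were highest in Ad-Dyrk1b replicate 1. For Rsad2 the margin over Ad-Dyrk1b replicate 2 was slight (16.18 against 16.07 FPKM).

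Of 10 further interferon-inducible GTPases 2 rose (20%, against 7.36% of all tested genes). Mx1, an antiviral dynamin-like GTPase, had 18.7, 13.1 and 6.56 FPKM in Ad-Dyrk1b livers, against 3.86, 4.84 and 3.33 FPKM in Ad-EGFP livers (log2 fold change 1.84 ± 0.35, edgeR adjusted p = 0.0207). Gvin1, a very large interferon-inducible GTPase, had 9.73, 9.55 and 8.61 FPKM in Ad-Dyrk1b livers, against 5.38, 6.15 and 5.25 FPKM in Ad-EGFP livers (log2 fold change 0.82 ± 0.10, edgeR adjusted p = 0.000405). The groups of both genes did not overlap, although Mx1 varied widely among Ad-Dyrk1b libraries and its adjusted p ranged from 1.43e-05 to 0.117 with 1 library left out, passing without Ad-Dyrk1b replicate 1 or 3 and not in the other 4 fits.

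Among 15 genes of interferon receptors and signalling 14 were tested and 1 rose (7.14%, against 7.36% of all tested genes). This was Ifnar2, a chain of the type I receptor. It had 64.2, 62.3 and 55.6 FPKM in Ad-Dyrk1b livers, against 44.2, 46.8 and 41.8 FPKM in Ad-EGFP livers (log2 fold change 0.51 ± 0.10, edgeR adjusted p = 0.00632, passing in all 14 settings). The IFN-gamma receptor chains Ifngr1 and Ifngr2 (log2 fold changes 0.29 ± 0.13 and -0.032 ± 0.12) and Irf1 (-0.34 ± 0.14, edgeR adjusted p = 0.134) did not pass. Ifng itself was at 0.13, 0.29 and 0.42 FPKM in Ad-Dyrk1b livers, against 0.14, 0.14 and 0.29 FPKM in Ad-EGFP livers, too few counts to test.

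Markers of T and NK cells were also measured. Of 12 such markers 10 were tested and 2 rose (20%, against 7.36% of all tested genes). Gzma rose by 0.92 ± 0.26 (edgeR adjusted p = 0.044) and Gzmb by 1.14 ± 0.14 (edgeR adjusted p = 0.000384) on the log2 scale. Gzmb kept its call whichever library was left out, and Gzma lost it without Ad-Dyrk1b replicate 1 or any one Ad-EGFP library. The summed FPKM was 55.8, 32.8 and 42.5 in Ad-Dyrk1b livers, against 22.1, 30.3 and 25.3 in Ad-EGFP livers, so every Ad-Dyrk1b library was above every Ad-EGFP library. The part of these cells in the rise of H2-Q1, H2-T24 and Gbp3 was not tested.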

How the data were processed

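RNA-seq was made from liver RNA of 3 Ad-Dyrk1b and 3 Ad-EGFP samples, with enriched mRNA and an Illumina NovaSeq, per the labels' protocols. The authors deposited, for each gene and library, counts of reads and FPKM values, and their own comparison with a log2 ratio of mean FPKM and p-values. Per the submitters' processing notes the build was mm10 and DESeq2 was used. The aligner, the counter, the use of strand and the treatment of reads with several matches were not given in the sources used here. At an adjusted p under 0.05, the authors' deposited table has 9 members higher and 2 lower.

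The deposited counts were tested here with edgeR 4.0.16 (R 4.3.3): TMM scaling, genes kept by filterByExpr (minimum count 10, minimum total 15), a robust quasi-likelihood fit over all 6 libraries, Ad-Dyrk1b over Ad-EGFP, a two-sided F-test and Benjamini-Hochberg adjustment over all 13201 tested genes. Levels are the deposited FPKM. Depth was 17326516 to 20024888 counts per library, 5089 of 22274 genes had no count, and limits from counts of 0 cover counting error only. Alternatives were DESeq2 1.42.0, its size factors in edgeR, no count filter, limma-voom and limma-trend (limma 3.58.1) on log2(FPKM + 1) and log2(FPKM + 0.1), a replicate block, and leaving out each library. With the fit on all libraries they make 14 settings. The edgeR script was tested on simulated data.

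Members and lists were chosen with earlier results of these data known. Any member could be named. By the rule, library values are given for H2-K1, H2-D1, B2m, genes that passed and the up to 6 most abundant tested genes of each class; those of H2-Q6, H2-M3, Gbp2b and Ciita were added outside it, after their values were seen. From each other list the rule allowed genes that passed and up to 4 with the smallest p, not all of which are named. Rfxank, Rfxap, Ctss, Ifngr2, Ifng, Pdia3 and Erap1 lie outside it and were named for their roles, after their values were seen. One gene's result is not reported here. Motifs were searched in RefSeq promoters of GRCm38.p6, and gene positions and shared 100-base windows come from GENCODE M21. No protein sequences were used, so shared windows stand in for the planned comparison of proteins.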

Additional observations from a re-analysis of the deposited data

How the results depend on the processing

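H2-Q1, H2-Q7, H2-T24 and Gbp3 kept their direction and their call in all 14 settings, and class II genes gave 0 calls in all of them. Counts moved for members as a whole with DESeq2 (11 passed, or 21.6% against 14.3% of all genes) and to 9 without a count filter (16.1% against 9.92%), against 6, and for GTPases without a count filter (4), with DESeq2 (5) and with limma-voom (4), against 2. With 1 library left out, the count of passing genes ranged from 909 to 1241 over all genes, against 1607, from 1 to 5 for GTPases and from 0 to 1 for antigen-processing genes. Those fits have fewer samples. Scaling moved the split of all calls: limma-trend on log2(FPKM + 1) gave 566 higher and 712 lower, and on log2(FPKM + 0.1) 569 higher and 725 lower, against 972 and 635, with the median log2 fold change of all genes at -0.064 and -0.083. Whether the replicate numbers pair the samples is not known, and correlations of same-numbered deviations were weak (0.0245, 0.172 and 0.108). Each Ad-EGFP replicate correlated best with the Ad-Dyrk1b replicate of its number. Ad-Dyrk1b replicate 1, however, correlated best with Ad-EGFP replicate 3 (0.0845). With the replicate block 8 members and 1883 genes passed, and no gene that passed without the block lost its call among the members. Mx1 (adjusted p = 0.0596 without a count filter and 0.051 in limma-voom), Gzma (0.0616 in limma-voom, 0.0946 and 0.0945 in limma-trend), Canx (0.108 and 0.107 in limma-trend) and Cd68 (0.102 and 0.101 in limma-trend) lost their calls there. Signs turned for genes near 0, none of them past the threshold. The log2 fold changes on log2(FPKM + 1) and log2(FPKM + 0.1) were -0.024 and -0.023 for Gbp6, -0.072 and -0.085 for H2-T10, and -0.012 and -0.011 for H2-DMb1. H2-T10 was at -0.0031 without a count filter and -0.002 with the block. Tgtp2 was at 0.0011 with DESeq2 size factors, 0.0012 with DESeq2, 0.031 with the block and 0.036 with limma-voom. With 1 library left out, values ranged from -0.14 to 0.17 for Gbp6, -0.11 to 0.14 for Igtp, -0.22 to 0.15 for Tgtp2, -0.094 to 0.058 for B2m, -0.17 to 0.032 for Psmb9, -0.092 to 0.053 for Tap1, -0.49 to 0.12 for H2-Bl, -0.071 to 0.089 for H2-T10, -0.38 to 0.059 for Cd74, -0.38 to 0.13 for Ciita, -0.19 to 0.35 for H2-Aa, -0.42 to 0.13 for H2-Ab1, -0.14 to 0.26 for H2-DMb1, -0.44 to 0.16 for H2-Eb1, -0.13 to 0.029 for Rfxank, -0.13 to 0.048 for Ifngr2 and -0.0011 to 0.20 for Ifi47. The cause of these changes was not tested. Genes under about 100 counts per library, such as Ciita, H2-Bl and H2-Ob, are limited by depth.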
